A study of Rattus norvegicus with 4 samples.

Results

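The genes described here encode the machinery of apoptosis, the caspases, and the inflammasome, and they were chosen by name from the platform annotation. The rule took symbols beginning with Casp, Nlrp or Dapk and a digit, symbols beginning with Bcl2 or Gsdm, and 18 further named genes, and it left out Casp14, the caspase of cornification. It found 39 genes with 61 probe sets among 14217 genes with a single symbol, and of several probe sets for a gene the brightest on average stands for it. No probe set carried the single symbol Bax, Cycs or Pmaip1, and Nlrp3 was likewise not analysed here.

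The data are 4 Affymetrix rat expression arrays, 2 of junctional epithelium, the thin cuff of epithelium that attaches the gum to a tooth, and 2 of peri-implant epithelium, the corresponding collar around a titanium alloy implant. The animals were male Sprague-Dawley rats whose left upper first molars were removed at 4 weeks of age, and tissue of 20 rats was taken 4 weeks after the implants were placed and captured by laser microdissection. All 4 samples carry the same treatment label, tooth extraction and implant placement, so no untreated animal is named as a control. The sources used here do not give whether an array holds 1 animal or a pool, or where in the mouth the junctional tissue lay, and p-values therefore measure the spread between these samples, which may be technical.

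Apoptosis runs along 2 routes. In the mitochondrial route, Bcl2 family proteins decide whether the outer membrane opens, and released cytochrome c assembles Apaf1 into a wheel that activates Casp9. In the receptor route, Fas binds Fadd, which activates Casp8 unless Cflar blocks it. Inflammasomes use the adaptor Pycard to activate Casp1, which matures the cytokine precursors of Il1b and Il18 and cuts gasdermins into pore formers. Casp4 reaches the gasdermin pore directly, on binding bacterial lipopolysaccharide in the cytosol. In gum and skin epithelium these systems govern cell turnover and the response to microbes.

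All values below are log2 signals, and the number of arrays limits their precision. The background level was set at 6.42, the brightest of 27 control probe sets for bacterial transcripts without a spike, and each array had between 54.6% and 56.8% of 31042 probe sets above it. The arrays had between 378 and 729 probe sets at the floor of 0, and the difference between the 3' and 5' probe sets of Gapdh lay between 0.52 and 0.68. Markers of basal keratinocytes were above background for 7 of 7 measured genes. Of 9 listed markers of junctional epithelium and the enamel organ, 4 were measured, and Ambn and Amelx lay at or below background on all 4 arrays. The other 2, Krt19 and Krt8, are shared by many epithelia, so these markers do not check the label of the junctional samples.

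Of the 39 genes, 3 were higher and 1 was lower in peri-implant epithelium. Casp4 and Casp1, the proteases of the inflammasome, and Apaf1, the scaffold of the apoptosome, were higher, and Casp2, an initiator caspase that responds to DNA damage and abnormal division, was lower. The test was limma with an intensity trend and a robust prior, and the Benjamini-Hochberg adjustment ran over 14217 genes at a threshold of 0.05. In that test 7.39% of all genes were higher and 5.34% lower, so the members' shares of 7.69% and 2.56% are near or under the background. With limma's default prior 0 of 14217 genes passed, although 2861 genes (20.1%), 9 of them among the 39, had an unadjusted p under 0.05. An exact permutation test of 2 arrays against 2 cannot go below a two-sided p of 0.333.

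**Figure D1:**
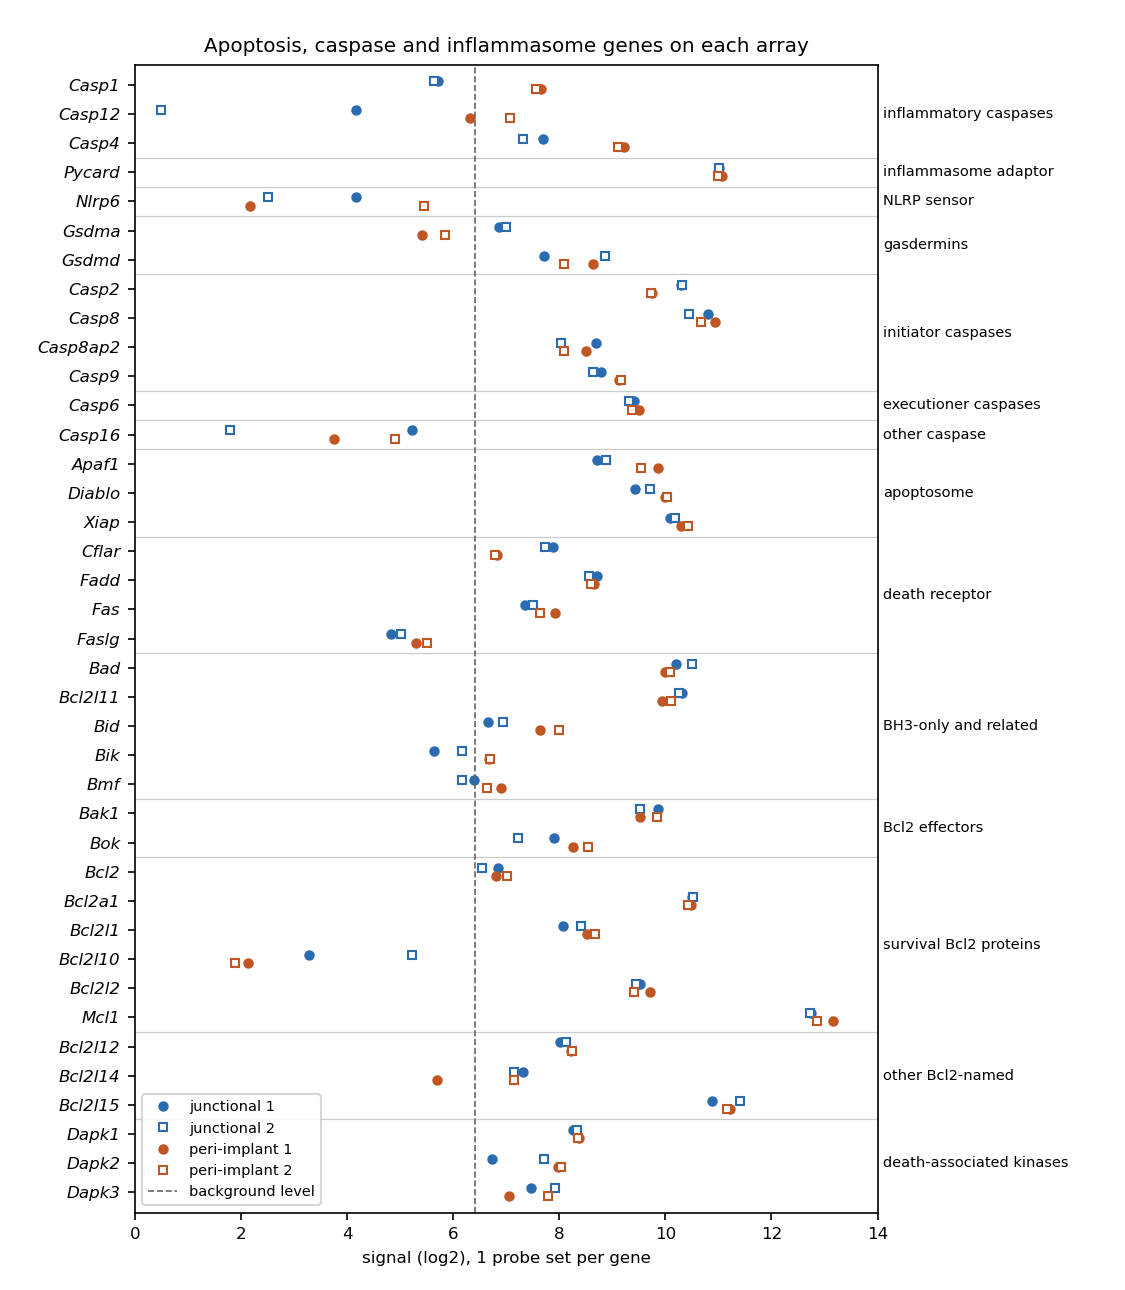
Signal of each of the 39 genes on each of the 4 arrays, on a log2 axis and grouped by role, with junctional arrays in blue, peri-implant arrays in orange and the background level of 6.42 as a dashed line. The orange points of Casp1, Casp4 and Apaf1 lie to the right of the blue ones, those of Casp2 lie to the left, and Bcl2l10, Casp16, Faslg and Nlrp6 lie wholly at or below the line.

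Casp4 had signals of 7.70 and 7.32 in junctional epithelium against 9.22 and 9.10 in peri-implant epithelium. The groups did not overlap, and the lower peri-implant array stood well above the higher junctional one. The difference was 1.65 with a standard error of 0.23, a 3.13-fold change (limma, adjusted p = 0.0026). Casp4 passed in 10 of 13 alternative analyses. It did not pass with the default prior (adjusted p = 0.119). Leaving out peri-implant replicate 1 gave an adjusted p of 0.0598, and leaving out peri-implant replicate 2 gave 0.055.

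Casp1 had signals of 5.71 and 5.63 in junctional epithelium, both below background, and 7.65 and 7.56 in peri-implant epithelium. Its junctional level is thus only a bound, and with that level raised to background the gene was at least 2.27-fold higher. As measured, the difference was 1.94 with a standard error of 0.39 (limma, adjusted p = 0.0149). Casp1 did not pass with the default prior (adjusted p = 0.0898), nor when any single array was left out. The adjusted p was 0.0866 without junctional replicate 1, 0.0791 without junctional replicate 2, 0.127 without peri-implant replicate 1 and 0.111 without peri-implant replicate 2.

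Casp12, a relative of the inflammatory caspases that lies beside them in the genome, had signals of 4.17 and 0.49 in junctional epithelium against 6.31 and 7.08 in peri-implant epithelium. Only 1 of those 4 values exceeded background, and the junctional arrays differed from each other by far more than the peri-implant arrays did. Raised to background, the difference was at least 1.21-fold, and the test did not pass (limma, adjusted p = 0.0604). In the rat assembly GRCr8, Casp1, Casp4 and Casp12 are adjacent protein-coding genes on chromosome 8, with 0 protein-coding genes between neighbours. The nearest flanking genes on the array, Gria4 on the side of Casp1 and Pdgfd on the side of Casp12, differed by -0.19 and -1.73 and did not pass (limma, adjusted p = 0.918 and 0.447). A probe set of Gria4 exceeded background on 1 array and that of Pdgfd on 0 arrays, so neither flank was well measured.

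The same samples differed in genes listed here as leukocyte markers, in a fit where 7.39% of all genes were higher and 5.34% lower. Of 11 measured neutrophil markers 6 were higher and 0 lower, with a median difference of 1.42, and their summed linear signal was 40324 to 40767 in junctional against 92672 to 105811 in peri-implant epithelium. S100a8 and S100a9 made up 91.4% to 94.6% of that sum, and the other markers together gave 3363 and 3503 against 5742 and 5938. Cxcr1, Mmp8, Camp and Itgam lay at or below background on all arrays, while Cxcr2 was 9.47 and 9.61 in junctional against 10.95 and 10.96 in peri-implant epithelium. Mmp9, also well above background, was 10.85 and 10.95 against 10.93 and 11.05 and did not pass (limma, adjusted p = 0.63). Of 17 macrophage and dendritic cell markers 9 were higher and 1, Mrc1, was lower, with a median difference of 0.78. Their summed linear signal was 22731 to 24405 in junctional against 37230 to 39035 in peri-implant epithelium, of which Lyz2 and Cd74 made up 58.9% to 64.4%. Cd163 lay at or below background on all arrays, and Cd68, at 9.13 and 9.09 in junctional against 9.20 and 9.41 in peri-implant epithelium, did not pass. Ptprc, the surface antigen shared by leukocytes, was 9.82 and 9.42 against 10.23 and 10.57. The part of these cells in the Casp1 and Casp4 differences was not tested, and in such bulk samples more cells of a type and more RNA per cell cannot be told apart. Which cells made the listed transcripts, leukocytes or keratinocytes, was not tested either.

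Pycard, the adaptor that joins sensors to Casp1, had signals of 11.02 and 11.01 in junctional against 11.07 and 11.00 in peri-implant epithelium. The groups overlapped, and the difference of 0.02 had a 95% interval from -0.20 to 0.23. Gsdmd, the gasdermin that the inflammatory caspases cut, had signals of 7.71 and 8.87 in junctional against 8.63 and 8.09 in peri-implant epithelium. Here too the groups overlapped, but replicates lay far apart and the interval from -0.76 to 0.90 is wide. Nlrp6, the only NLRP sensor found, did not exceed background on any array.

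Gsdma, a gasdermin of keratinizing epithelium, was the other gasdermin measured. Its signals were 6.87 and 6.99 in junctional against 5.41 and 5.84 in peri-implant epithelium. The groups did not overlap and only the junctional arrays exceeded background, which makes the gene at least 1.42-fold lower in peri-implant epithelium. It did not pass with this probe set (limma, adjusted p = 0.108). Its other probe set had signals of 7.88 and 7.60 against 5.72 and 2.57, where again both peri-implant values lay below background, so it was at least 2.49-fold lower. As measured it passed (limma over all probe sets, adjusted p = 0.0363), as did the mean of both probe sets (adjusted p = 0.0345), but both tests rest on those values below background. That other probe set was picked out after its values were seen. Of 8 measured markers of suprabasal and cornified keratinocytes 5 were lower and 1 higher, with a median difference of -0.63 and a summed linear signal of 140055 to 140406 in junctional against 112327 to 118475 in peri-implant epithelium. Krt13 and Krtdap made up 65.7% to 78.5% of that sum, and the other markers together gave 47973 and 46116 against 25451 and 26422. Over all genes 5.34% were lower and 7.39% higher in the same fit. None of the 8 markers lay at or below background on all arrays, and the part of suprabasal and cornified cells in the Gsdma values was not tested.

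Among the initiator caspases, Casp2 was 10.29 and 10.32 in junctional against 9.75 and 9.72 in peri-implant epithelium. The replicates of each group nearly coincided, and the groups did not overlap. The difference was -0.56 with a standard error of 0.12, a 1.48-fold change (limma, adjusted p = 0.0184). The second Casp2 probe set had the same sign at -0.20 (limma over all probe sets, adjusted p = 0.642), and the mean of both did not pass (adjusted p = 0.139). Casp2 did not pass with the default prior (adjusted p = 0.169). It also missed the threshold when either junctional array was left out (adjusted p = 0.128 without replicate 1 and 0.129 without replicate 2). The same held for the peri-implant arrays (adjusted p = 0.0923 without replicate 1 and 0.1 without replicate 2).

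Casp9, the initiator activated on the apoptosome, was 8.78 and 8.64 in junctional against 9.12 and 9.17 in peri-implant epithelium, without overlap. The difference of 0.44 did not pass (limma, adjusted p = 0.128). Casp8, the initiator of the receptor route, was 10.80 and 10.44 against 10.93 and 10.67, with overlapping groups and an interval of the difference from -0.15 to 0.51. Its binding partner Casp8ap2 also overlapped with its brightest probe set, at a difference of -0.07. The other probe set of Casp8ap2 was 7.01 and 6.92 against 8.04 and 7.71, without overlap and with a difference of 0.91. Neither probe set passed. Casp6, an executioner caspase, was 9.41 and 9.32 against 9.51 and 9.38, and its interval ran from -0.26 to 0.42. Casp16, a caspase without a role assigned here, did not exceed background on any array.

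Apaf1, the scaffold on which Casp9 is activated, was 8.71 and 8.88 in junctional against 9.87 and 9.54 in peri-implant epithelium. The groups did not overlap. The difference was 0.91 with a standard error of 0.18, a 1.88-fold change (limma, adjusted p = 0.0121). The second probe set of Apaf1, with signals of 8.86 and 8.87 against 9.09 and 8.89, differed by 0.12 (limma over all probe sets, adjusted p = 0.726). The mean of both did not pass (difference 0.52, adjusted p = 0.0805), so the size of the Apaf1 change depends on the probe set. The gene did not pass with the default prior (adjusted p = 0.169). It also missed the threshold when a junctional array was left out (adjusted p = 0.129 without replicate 1 and 0.0914 without replicate 2) or a peri-implant array (adjusted p = 0.117 without replicate 1 and 0.0589 without replicate 2).

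Diablo and Xiap, regulators of caspases that were grouped here with Apaf1, had smaller positive differences with their brightest probe sets. Diablo, a mitochondrial protein that frees caspases from their inhibitors, was 9.42 and 9.71 in junctional against 9.99 and 10.03 in peri-implant epithelium, without overlap (difference 0.45, limma, adjusted p = 0.0788). It passed where only genes above background on at least 2 arrays were tested (adjusted p = 0.0491). Xiap, the inhibitor that holds Casp9 and the executioner caspases in check, was 10.09 and 10.18 against 10.30 and 10.42, again without overlap (difference 0.22, limma, adjusted p = 0.264). Its second probe set had the opposite sign, -0.18.

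Promoters of the genes that passed are shown, as far as RefSeq windows were matched, because they differ widely in CG content. Each sequence is the 250 bases before the RefSeq gene start in GRCr8, read 5′ to 3′ on the gene's strand, with CG dinucleotides in capitals. RefSeq promoters were matched for 31 of the 39 genes. Those not matched were Bcl2l10, Bik, Bok, Casp4, Casp8, Casp8ap2, Gsdmd and Xiap.
Casp1 promoter, chr8:10872580-10872829, plus strand: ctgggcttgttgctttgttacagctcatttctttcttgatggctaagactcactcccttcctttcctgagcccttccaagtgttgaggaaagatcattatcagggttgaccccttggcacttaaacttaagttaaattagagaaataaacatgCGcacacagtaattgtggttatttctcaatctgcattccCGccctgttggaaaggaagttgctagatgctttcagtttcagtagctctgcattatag
Apaf1 promoter, chr7:27466773-27467022, minus strand: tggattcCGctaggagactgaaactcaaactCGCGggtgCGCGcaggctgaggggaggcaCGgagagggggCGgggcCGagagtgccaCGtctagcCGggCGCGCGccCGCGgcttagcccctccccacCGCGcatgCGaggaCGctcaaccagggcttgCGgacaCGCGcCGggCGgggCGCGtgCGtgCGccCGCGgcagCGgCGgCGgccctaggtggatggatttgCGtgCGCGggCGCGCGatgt
Casp2 promoter, chr4:72116107-72116356, plus strand: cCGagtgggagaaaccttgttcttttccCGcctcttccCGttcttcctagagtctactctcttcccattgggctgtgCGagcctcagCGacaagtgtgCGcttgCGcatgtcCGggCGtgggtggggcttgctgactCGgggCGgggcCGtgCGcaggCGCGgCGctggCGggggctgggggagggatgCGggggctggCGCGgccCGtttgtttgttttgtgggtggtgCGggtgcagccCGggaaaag

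The window of Casp1 held 2 CG dinucleotides at a GC content of 42%, that of Casp2 held 23 at 66.8%, and that of Apaf1 held 39 at 74%. The median over 33469 promoters was 5 and over the 31 matched genes 8. The neighbouring Casp12 had 3, and Cflar, from the receptor route, had 2. Both strands were searched for the core of the NF-kappaB motif, written GGGANTTTC, and for the interferon-gamma activation motif TTCNNNGAA, where N is any base. The first was found in 1 of 31 matched promoters, that of Mcl1, and in 0.953% of all promoters. The second was found in 3, those of Bad, Casp12 and Dapk1, and in 7.67% of all promoters. Neither stood in the 3 windows printed, which says only that these letters are not in those bases.

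Among the receptor route genes, Cflar, the inhibitor that competes with Casp8 at Fadd, was 7.88 and 7.74 in junctional against 6.83 and 6.78 in peri-implant epithelium. The groups did not overlap, and all arrays exceeded background. The 2.01-fold difference, with a standard error of 0.30 on the log2 scale, did not pass (limma, adjusted p = 0.0585). It passed after quantile normalization (adjusted p = 0.0388), after centring each array on its median (adjusted p = 0.0389) and among genes above background on at least 2 arrays (adjusted p = 0.0379). A second, dimmer probe set differed by -0.80 and overlapped between the groups. In GRCr8, Cflar and Casp8 are adjacent on chromosome 9.

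Fas, the receptor itself, was 7.36 and 7.51 in junctional against 7.92 and 7.64 in peri-implant epithelium. The groups did not overlap, and the difference of 0.34 had an interval from -0.28 to 0.96 (limma, adjusted p = 0.469). Its other probe sets lay at or below background on all arrays. Fadd, the adaptor, was 8.72 and 8.56 against 8.66 and 8.59, with overlapping groups and an interval from -0.44 to 0.41. Faslg, the ligand carried by cytotoxic lymphocytes, lay at or below background on all arrays.

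**Figure D2:**
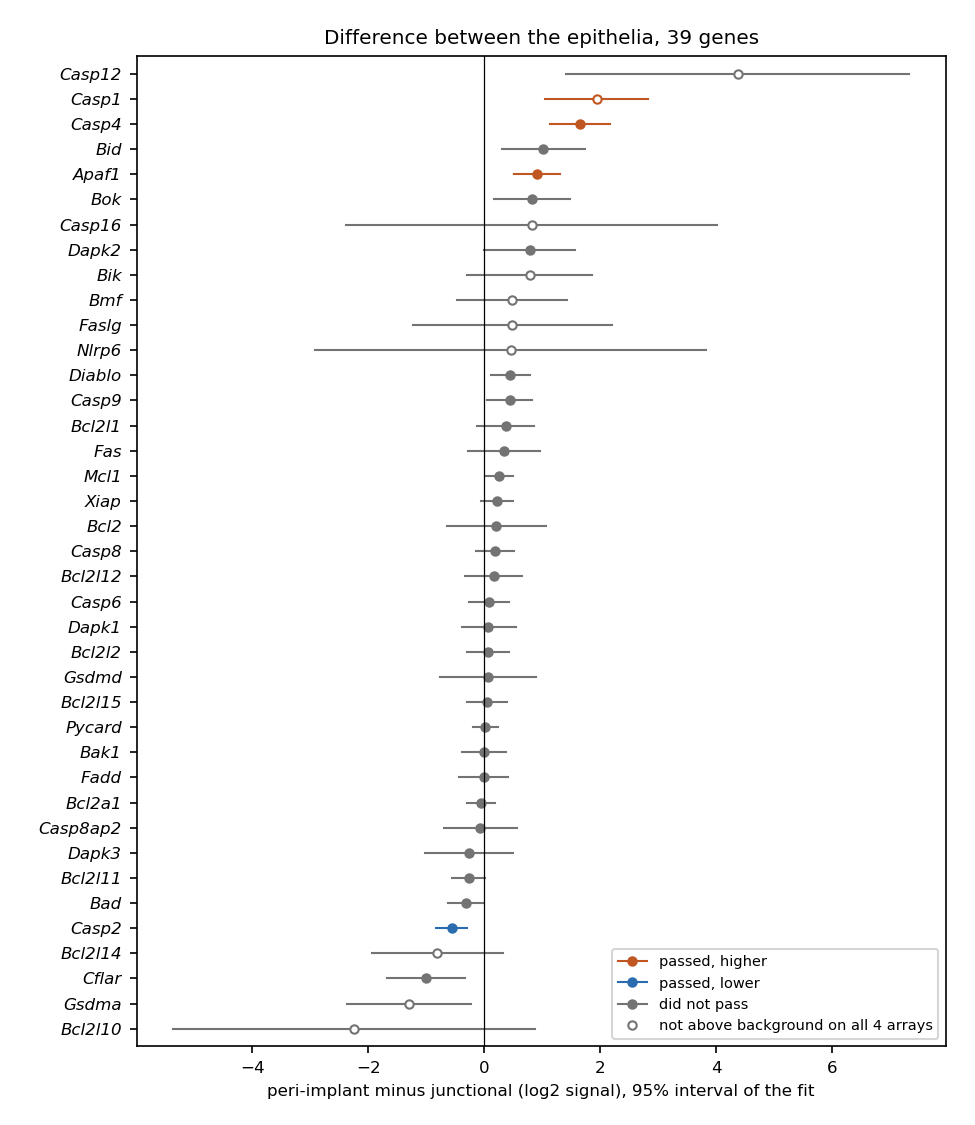
Peri-implant minus junctional difference of each of the 39 genes on a log2 axis, with points for the estimate, bars for the 95% interval of the limma fit, orange for genes that passed as higher, blue for lower and grey for the rest. Open circles mark genes not above background on all 4 arrays, and the bars of dim genes such as Casp12, Nlrp6 and Bcl2l10 are several times as wide as those of bright genes such as Pycard and Mcl1.

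Of the proteins that restrain the mitochondrial route, 0 of 6 passed (smallest adjusted p = 0.138, limma; 1 of them, Mcl1, had an unadjusted p under 0.05). In the same fit 28.5% of all genes and 13 of the 39 had an unadjusted p under 0.05. Mcl1, a short-lived survival protein, was 12.75 and 12.73 in junctional against 13.16 and 12.85 in peri-implant epithelium, without overlap and with a difference of 0.26. Bcl2l1, which encodes Bcl-xL, was 8.07 and 8.40 against 8.53 and 8.68, also without overlap (difference 0.37). Bcl2a1, a survival gene of myeloid cells and keratinocytes under NF-kappaB control, was 10.50 and 10.52 against 10.48 and 10.43. Its groups did not overlap, and its difference of -0.05 had an interval from -0.30 to 0.19.

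Bcl2 itself and Bcl2l2, a further survival protein, overlapped between the groups, with differences of 0.21 and 0.07. Bcl2l10 lay at or below background on all arrays. Of the less defined relatives, Bcl2l12 was 8.01 and 8.13 against 8.22 and 8.24 and Bcl2l15 was 10.88 and 11.40 against 11.22 and 11.16. Bcl2l14 was 7.31 and 7.14 against 5.70 and 7.14, where 1 peri-implant array fell below background. None of these 3 passed (limma, adjusted p from 0.33 to 0.878).

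Of the effectors that open the mitochondrial membrane, Bak1 was 9.86 and 9.53 in junctional against 9.53 and 9.85 in peri-implant epithelium. The groups overlapped fully, with an interval of the difference from -0.39 to 0.38. Bok, a divergent effector, was 7.90 and 7.23 against 8.25 and 8.54. The groups did not overlap, and the difference of 0.82 did not pass (limma, adjusted p = 0.0969). A second probe set of Bok differed by 0.53 in the same direction.

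The BH3-only proteins, which relay death signals to the Bcl2 family, went in both directions, and all 5 had groups that did not overlap, 3 of them higher and 2 lower, against 31.2% and 25.2% of all genes. None of them passed (limma, adjusted p from 0.0673 to 0.51), and 2 of them, Bid and Bad, had an unadjusted p under 0.05, against the 28.5% of all genes. Bid, which carries the Casp8 signal to mitochondria, was 6.66 and 6.93 in junctional against 7.64 and 7.99 in peri-implant epithelium, a 2.02-fold difference (adjusted p = 0.0673). It passed among genes above background on at least 2 arrays (adjusted p = 0.0425). Bik was 5.63 and 6.17 against 6.68 and 6.69 and Bmf, released from the cytoskeleton in detached cells, was 6.40 and 6.17 against 6.91 and 6.63. For both genes only the peri-implant arrays exceeded background, and the differences were at least 1.2-fold and at least 1.27-fold. With signals raised to background Bik passed (difference 0.26, limma, adjusted p = 0.00601), but both its junctional values are then the same number.

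Bad and Bcl2l11 had lower signals on both peri-implant arrays than on either junctional array. Bad, which growth factor signals keep inactive, was 10.21 and 10.50 in junctional against 9.99 and 10.08 in peri-implant epithelium (difference -0.32). Bcl2l11, which encodes Bim, was 10.31 and 10.26 against 9.93 and 10.11 with its brightest probe set (difference -0.27, limma, adjusted p = 0.197). Its other probe sets had larger differences of the same sign. One was 8.42 and 7.90 against 6.56 and 6.61, a difference of -1.58 (limma over all probe sets, adjusted p = 0.0155), and the other was 7.69 and 7.54 against 6.56 and 6.67 (adjusted p = 0.0872). All 3 probe sets exceeded background on all 4 arrays, and their mean passed (adjusted p = 0.0264). These probe sets were picked out after their values were seen, and the sources used here do not give which transcripts each of them detects.

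**Figure D3:**
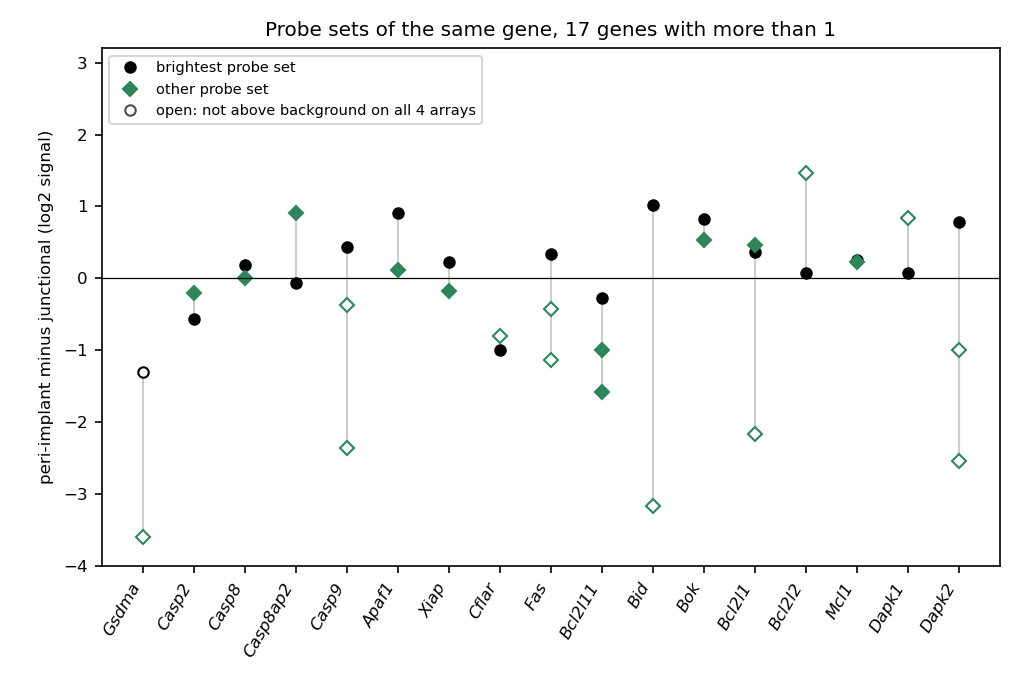
Peri-implant minus junctional difference, on a log2 axis, of every probe set of the 17 genes that have more than 1, with black circles for the brightest probe set, green diamonds for the others and open symbols for probe sets not above background on all 4 arrays. The 3 filled symbols of Bcl2l11 all lie below 0, those of Apaf1 lie apart at 0.91 and 0.12, and most points of opposite sign within a gene are open.

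The death-associated kinases, enzymes that promote membrane blebbing and autophagy, gave 0 of 3 past the test (smallest adjusted p = 0.18, limma; 0 of 3 with an unadjusted p under 0.05, against 28.5% of all genes). Dapk2 was 6.74 and 7.71 in junctional against 7.98 and 8.04 in peri-implant epithelium. Its groups did not overlap, but junctional replicate 1 was low, and 2 probe sets that were dimmer on average had the opposite sign. Dapk1 was 8.26 and 8.33 against 8.38 and 8.35, with an interval of the difference from -0.39 to 0.54. Dapk3 overlapped, with a difference of -0.27.

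Across the 39 genes, 29 exceeded background on all 4 arrays, 6 on some, and Bcl2l10, Casp16, Faslg and Nlrp6 on none. Groups of arrays did not overlap for 18 genes that were higher and 8 that were lower in peri-implant epithelium, against 31.2% and 25.2% of all genes. The median difference was 0.18, against 0.05 over all genes. The scale mattered here. Centring each array on its median shifted the median of all genes by -0.10, and the members' median became 0.08, with 21 positive and 18 negative differences in place of 27 and 12. Among called genes the share that was higher was 58.1% on the deposited scale and 39.8% after centring, and 50.1% after quantile normalization. Casp1, Casp4 and Apaf1 stayed higher and Casp2 stayed lower, past the test, on all 3 scales.

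At least 2-fold apart and without overlap were 4 genes that were higher (Bid, Casp1, Casp12 and Casp4) and 3 that were lower (Bcl2l10, Cflar and Gsdma), against 9.79% and 6.37% of all genes. Of these 7, Bcl2l10 lay wholly below background, and 4 genes remained this far apart when signals were raised to background. The share of all genes this far apart was not counted on that scale. Of the 29 genes above background on all 4 arrays, 22 (75.9%) differed by less than 0.5, against 75% of all genes so measured.

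Genes outside the naming rule but in the same pathways were read from lists fixed with earlier results of these data known. In the fit that gave the counts of all these lists, 7.39% of all genes were higher and 5.34% lower. Inhibitors of apoptosis had 1 of 6 higher and 0 lower. Birc3, which ubiquitinates Ripk1 in TNF signalling, was 7.71 and 7.94 in junctional against 9.64 and 9.41 in peri-implant epithelium, a 3.25-fold difference without overlap (limma, adjusted p = 0.00113). Its relatives Birc2 and Birc5 differed by 0.23 and -0.20 and did not pass. Among TNF-type death receptors and their complexes 3 of 12 were higher and 0 lower. Tnfaip3, a brake on NF-kappaB, was 8.43 and 8.47 against 9.70 and 9.53 (adjusted p = 0.00314). Ripk1, a kinase of the same complex, was 9.09 and 8.88 against 9.83 and 9.56 (adjusted p = 0.0275), and Ripk3, its partner in necroptosis, 6.03 and 6.70 against 7.66 and 7.71, at least 2.18-fold higher (adjusted p = 0.0482).

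Inflammasome products and receptors had 3 of 10 higher and 0 lower. Il1b, the main cytokine that Casp1 matures, was 11.83 and 11.79 in junctional against 13.38 and 13.36 in peri-implant epithelium, a 2.95-fold difference (limma, adjusted p = 5.75e-06). Il1a rose by 0.85 and the decoy receptor gene Il1r2 by 1.21. Il18, the other Casp1 substrate, was 8.29 and 8.51 against 7.58 and 7.95, without overlap and in the opposite direction, and did not pass (adjusted p = 0.124). Other inflammasome sensors and regulators had 2 of 15 higher, Nod1 and Tlr4, and 1 lower, the peptidase gene Dpp8.

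Death genes tied to p53 and further BH3-only genes had 1 of 13 higher and 1 lower. Bnip3, a mitochondrial protein induced by low oxygen, had a mean signal of 7.99 ± 0.19 (SD, n = 2) in junctional and 9.05 ± 0.08 (SD, n = 2) in peri-implant epithelium, a 2.1-fold difference without overlap (limma, adjusted p = 0.0117), and Bag3, a co-chaperone, fell by 0.44. Caspase targets and nucleases had 0 of 13 past the test (smallest adjusted p = 0.0571, limma, for the channel gene Panx1, which like Lmnb1 had an unadjusted p under 0.05). The medians of these 6 lists lay between -0.12 and 0.48, against 0.05 over all genes.

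**Figure D4:**
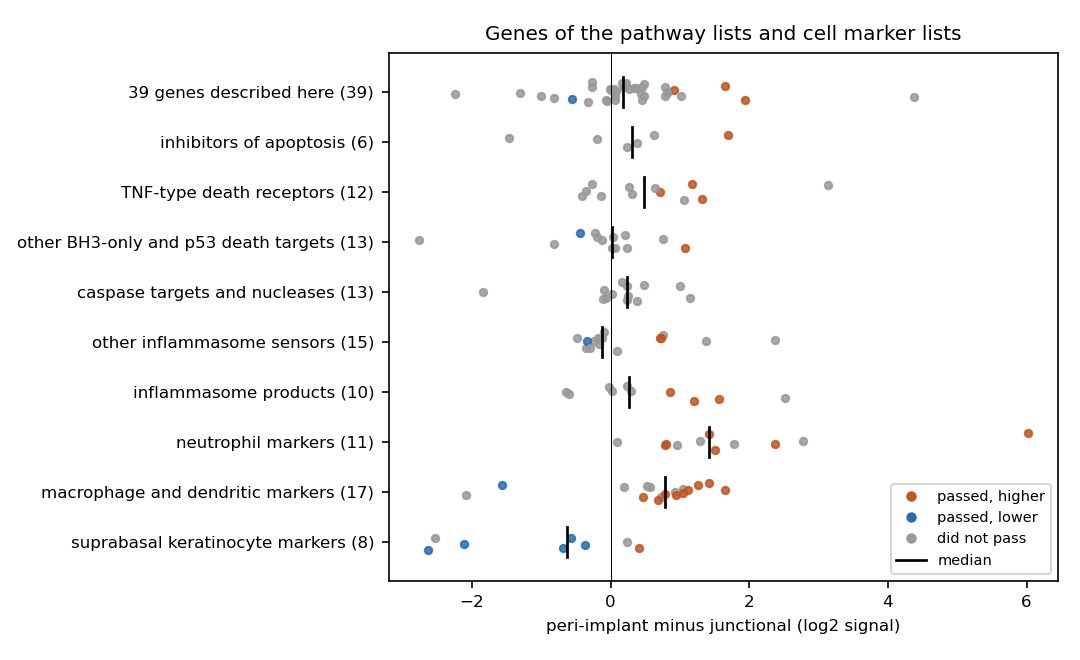
Peri-implant minus junctional difference, on a log2 axis, of the 39 genes, of the genes in 6 pathway lists and of 3 cell marker lists, with the number measured in brackets, a black bar at each median, and colour for genes that passed as higher (orange) or lower (blue). The medians of the 39 genes and of the pathway lists lie between -0.12 and 0.48, those of the neutrophil and macrophage lists at 1.42 and 0.78, and that of suprabasal keratinocyte markers at -0.63.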

How the data were processed

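The deposited values are log2 signals of 31099 probe sets on 4 arrays, in 1 table from the authors. Software and normalization were not given in the sources used here. In the deposited log2 values, every array shares a linear-scale mean of 500.19 once 2% is trimmed from either end, and linear signals have a floor of 1. Control probe sets (57) were left out. Symbols come from the platform annotation, where 20826 of the 31042 remaining probe sets had 1 symbol, 436 several and 9780 none. The probe set with the highest mean stood for its gene.

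Epithelia were compared in R 4.3.3 with limma 3.58.1 (lmFit, then eBayes, trend and robust options on, two-sided, 2 residual degrees of freedom), and p-values were Benjamini-Hochberg adjusted over all genes at 0.05. The trend was chosen because replicate spread falls with signal. Signals of the lower group that did not exceed background were raised to 6.42, and the fold is then given as "at least". The members, the lists and the choice of the trend were made with earlier results of these data known. Genes named are those that passed, those whose arrays did not overlap with 1 group mean above background, and the brightest of each role. The remaining members are given so that all 39 are accounted for. From each pathway list at most 3 genes that passed were named by size, and others were added after their values were seen. Genes of the cell marker lists were not named by size, so the largest differences, such as those of Lcn2, Laptm5 and Krt10, are not given. Alternatives changed the prior, scaling, floor, dim-gene filter, probe set choice, test family, replicate block and arrays included. Promoter windows are RefSeq sequences of GRCr8.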

Additional observations from a re-analysis of the deposited data

How the results depend on the processing

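Of 311 values of 24 named genes under 13 alternatives, 272 kept their direction and their side of the threshold, 20 lost the call, 12 gained one and 7 turned. These 24 had arrays that did not overlap and 1 group mean above background, so genes named only as the brightest of a role are left out. Dropping an array, or changing the prior, dim-gene filter, test family or block, could not turn their direction. All 20 lost calls belong to Apaf1, Casp1, Casp2 and Casp4, the genes that passed. All 7 that turned belong to genes that did not pass. With the mean of all probe sets these were Bcl2l1 (-0.44), Bid (-1.08), Casp9 (-0.76), Dapk2 (-0.92) and Fas (-0.41). Each of these genes has a probe set at or below background on all arrays. For Dapk2 a further probe set of opposite sign was 7.73 and 8.07 in junctional against 3.41 and 7.30 in peri-implant epithelium. Dapk1 became -0.02 after quantile normalization and -0.03 after centring. The causes of these and the other changes were not tested.

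With the default prior 0 members were higher and 0 lower, and 0 genes either way. Testing only genes above background on at least 2 arrays gave 5 members higher and 2 lower. Of the 9926 genes tested in that setting, 1322 were higher and 999 lower. Quantile normalization, centring and the mean of all probe sets each gave 2 members lower, beside 876, 1157 and 584 of all 14217 genes. With signals raised to background 4 members stayed at least 2-fold apart, and the share over all genes was not counted on that scale. Leaving out 1 array, which leaves a lone sample assumed to vary like the other group, gave 0 to 1 members higher and 0 lower, and 170 to 231 genes higher and 50 to 210 lower.

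The labels number the arrays 1 and 2 in each group. Replicate differences of the groups were hardly correlated over genes (r = 0.018 across all genes and 0.055 across genes above background, which are not independent replicates). Arrays of the same number were closer in probe sets at the floor of 0, with 729 and 666 for number 1 against 378 and 382 for number 2. The labels do not say what a number stands for, and a shared batch was not tested. With the replicate number as a block, 6 members were higher and 2 lower, adding Bid, Casp12, Cflar and Diablo to the calls, and 1410 genes were higher and 1060 lower. Signals at or below background limit what Casp1, Casp12, Gsdma, Bik and Bmf can show beyond a bound.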
